A study of Mus musculus with 8 samples.

Results

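The miR-15 family is a group of mouse microRNAs (miRNAs) with a common seed, the stretch of bases 2 to 8 that leads a miRNA to its target mRNAs. The rule for its members uses names and no measured value: the 5p arm, cut from the 5′ side of the hairpin, of miR-15a, miR-15b, miR-16, miR-195a, miR-322 and miR-497a. In the deposited table they stand as mmu-miR-15a-5p, mmu-miR-15b-5p, mmu-miR-16-5p, mmu-miR-195a-5p and mmu-miR-497a-5p, and the prefix is left out below. Of these 6 names, 5 were analysed among the 952 miRNA rows with counts in some library, and miR-322-5p was not analysed here. All 5 were among the 226 miRNA rows with enough counts to be tested. The samples were mouse sperm from a study of alcohol cessation, with 4 control and 4 ethanol samples, and total RNA extracted with Trizol was made into Qiaseq small RNA libraries. The labels used here name no strain, age, ethanol dose or interval after the last exposure. Nothing in them says whether replicate samples are from different animals, and every p below measures the spread between these samples, which may be technical. The ethanol samples carry codes of 2 kinds, 1 kind for ethanol 1 and 2 and another for ethanol 3 and 4, with no statement of what the codes stand for in the sources used here.

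A miRNA is cut from a hairpin in a primary transcript, first by Drosha in the nucleus and then by Dicer in the cytoplasm, and 1 arm is loaded into an Argonaute protein. The miR-15 family is best known for repressing cyclins and other cell-cycle genes and the survival factor Bcl2, and the pair of miR-15a and miR-16-1 is a tumour suppressor locus in lymphocytes. Sperm are almost silent in transcription, and their small RNAs come from spermatogenesis and from vesicles taken up in the epididymis.

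The mature sequences, from RefSeq with the build GRCm38.p6, are shown because they define the family and show where its members differ, with the seed in capitals.
miR-16-5p: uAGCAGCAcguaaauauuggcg
miR-195a-5p: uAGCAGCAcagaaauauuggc
miR-15a-5p: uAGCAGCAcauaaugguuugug
miR-15b-5p: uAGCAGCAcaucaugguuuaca
miR-497a-5p: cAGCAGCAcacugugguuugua
miR-322-5p: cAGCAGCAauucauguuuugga

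The seed AGCAGCA was found in 10 of the 1679 mature miRNA names of that table, and 5 of the 10 were analysed here. Counting positions from 1 at the 5′ end, miR-195a-5p differed from miR-16-5p at 2 of 21 compared positions, written G10A and U11G with the miR-16 base first. miR-15b-5p differed from miR-15a-5p at 4 of 22 positions (A12C, G20A, U21C, G22A), all beyond the seed. miR-16-5p differed from miR-15a-5p at 6 of 22 positions and from miR-497a-5p at 11 of 22. The sources used here do not give the way reads matching more than 1 of these sequences were counted, and the level of miR-195a beside the far more abundant miR-16 is uncertain.

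The 5 members analysed come from 3 pairs of neighbouring hairpins in which a miR-15-like and a miR-16-like sequence lie together. miR-322-5p comes from another locus, Mir322 on chromosome X. On GRCm38.p6, Mir15a and Mir16-1 lie within 217 bases on chromosome 14, in the noncoding RNA gene Dleu2; the annotation places Mir15a in an intron, and Mir16-1 overlaps an exon of a Dleu2 transcript. Mir15b and Mir16-2 lie within 225 bases on chromosome 3, in introns of Smc4, which encodes a condensin subunit. Mir195a and Mir497 lie within 419 bases on chromosome 11, in no other annotated gene except that Mir497 has the gene Mir497b on the opposite strand. The hairpins Mir16-1 (chr14:61631880-61631972, minus strand) and Mir16-2 (chr3:69009902-69009996, plus strand) are shown with both arms in capitals, because they give the same 5p arm and miR-16-5p counts therefore cannot be assigned to either locus.
Mir16-1: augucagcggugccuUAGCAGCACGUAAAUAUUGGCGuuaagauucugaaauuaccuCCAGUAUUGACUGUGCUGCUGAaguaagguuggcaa
Mir16-2: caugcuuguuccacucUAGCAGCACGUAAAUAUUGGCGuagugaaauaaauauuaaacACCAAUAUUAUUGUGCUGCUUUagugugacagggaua

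Library totals ran from 4365887 to 4921827 counts in control and from 3481865 to 6975180 in ethanol. Of the counts kept as features, which are fewer than these totals, miRNAs took 17.6% to 28.0% in control libraries and 6.47% to 11.1% in ethanol libraries. The groups thus did not overlap in the measure that every miRNA value shares. Among the 124 miRNAs whose median exceeded 100 counts, 23 had a 0 in at least 1 library. Such a 0 beside high counts elsewhere is treated as doubtful, and the fold changes and ratios of a member are given with and without it. The sperm transcripts Prm1, Prm2, Tnp1, Tnp2, Odf1, Smcp and Akap4, which encode protamines, transition proteins and flagellar or capsule proteins, had counts in every library. Control 2 stood apart in several miRNAs of stroma and muscle and ethanol 2 in epithelial mRNAs, with values given beside the results they touch. Levels are given in CPM, a count divided by the library size after scaling with TMM (trimmed mean of M values), and fold changes are log2 values of ethanol against control with their standard error (SE).

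All 5 family members had lower levels in ethanol than in control sperm, and 3 of the 5 fell at an edgeR adjusted p under 0.05: miR-16-5p, miR-195a-5p and miR-497a-5p. Over all 13513 tested features 1.75% were called lower and 11.8% higher. Among the 226 miRNA rows of the same test 39.4% were called lower and 0.442% higher, so falling was common among miRNAs as a class. The median log2 fold change was −2.0 over the 5 members, −1.52 over the tested miRNA rows and −0.01 over all tested features. With miR-15a and miR-15b each taken without the library that lists it at 0, the median over the members was −1.84. In these bulk samples, fewer cells of a type and less RNA per cell cannot be told apart. The calls were fragile: leaving out any 1 of the control libraries left 0 members called. Without control 1, 2, 3 or 4, only 3, 3, 7 and 10 features of any kind were called, against 1837 with all 8 libraries. The loss of a call without a control library was thus common to nearly all features, and not a trait of the family.

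miR-16-5p was the most abundant miRNA in each of the 8 libraries. Its counts were 258805, 335486, 195769 and 224766 in control 1 to 4 and 187196, 53509, 184097 and 118335 in ethanol 1 to 4. In CPM the control libraries held 67769, 86736, 48882 and 62519, and the ethanol libraries held 27499, 11259, 34726 and 20466. Every ethanol library lay below every control library, with ethanol 2 the lowest and ethanol 3 the nearest to the controls. Among all tested features 6.91% were separated in this way, and among miRNA rows 41.6%. Its mean was 66476 ± 15677 CPM (SD, n = 4) in control and 23488 ± 10018 CPM (SD, n = 4) in ethanol, and it fell by 1.5 ± 0.47 on the log2 scale (edgeR, adjusted p = 0.0477). As a share of the miRNA counts of its own library, miR-16-5p made up 28.5% ± 2.71 (SD, n = 4) in control and 27.5% ± 2.33 (SD, n = 4) in ethanol. The difference between the groups in CPM was thus not seen in its share of miRNAs.

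**Figure D1:**
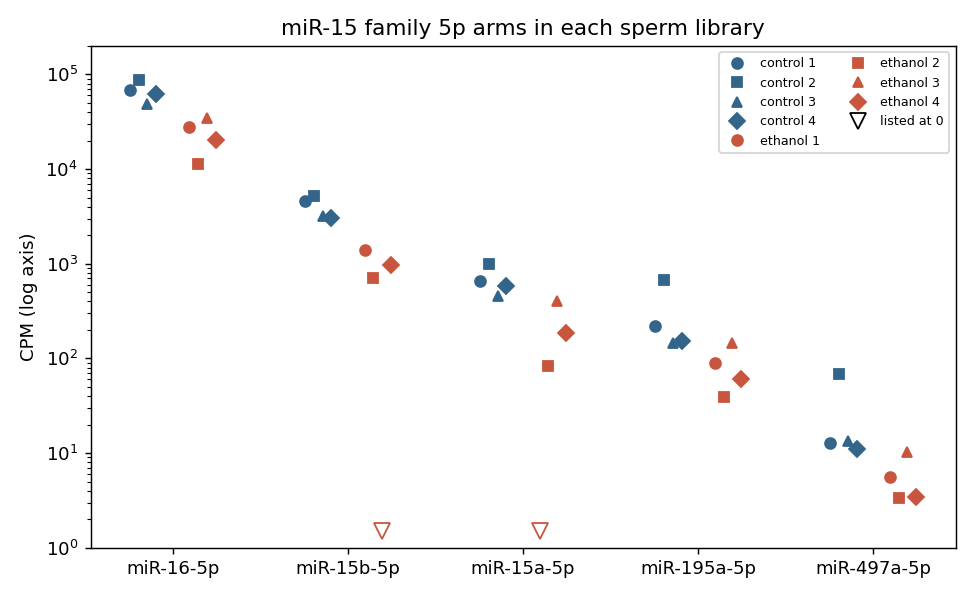
Level of each family 5p arm in CPM (log axis) in the 4 control (blue) and 4 ethanol (red) sperm libraries, one point per library, with an open triangle for a value listed at 0. miR-16-5p lies between 48882 and 86736 CPM in control and between 11259 and 34726 CPM in ethanol, far above the other members.

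miR-15b-5p, cut from the transcript that also carries Mir16-2, was the second most abundant member. Its counts were 17371, 20164, 12928 and 10922 in control 1 to 4 and 9620, 3356, 0 and 5609 in ethanol 1 to 4. Its levels were 4549, 5213, 3228 and 3038 CPM in control 1 to 4 and 1413, 706, 0 and 970 CPM in ethanol 1 to 4. The 3 ethanol libraries with counts lay below all 4 controls. Ethanol 3, the deepest of the libraries, listed miR-15b-5p at 0 while 4 counts stood in the row of its hairpin. The log2 fold change was −2.38 ± 1.29 (SE; edgeR adjusted p = 0.220), and without ethanol 3 it was −2.07 ± 0.48 (edgeR adjusted p = 0.00518). That second test also called more features of every kind, 3568 against 1837 with all 8 libraries.

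miR-15a-5p, the partner of miR-16-1 in the Dleu2 locus, had 2530, 3815, 1813 and 2077 counts in control 1 to 4 and 0, 392, 2136 and 1067 in ethanol 1 to 4. Its levels were 662, 986, 453 and 578 CPM in control and 0, 82.5, 403 and 185 CPM in ethanol. Here ethanol 1 held the lone 0, beside 3 counts in the hairpin row, and the other 3 ethanol libraries lay below all controls, ethanol 3 only just. The log2 fold change was −2.0 ± 1.21 (SE; edgeR adjusted p = 0.263) and −1.58 ± 0.61 without ethanol 1 (edgeR adjusted p = 0.0849). miR-15a-5p passed the threshold with neither set of libraries. A miss of the threshold does not show that its level was the same in both groups.

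miR-195a-5p has 2 of 21 bases different from miR-16-5p but stems from the locus on chromosome 11. Its counts were 848, 2622, 585 and 555 in control 1 to 4 and 605, 187, 775 and 346 in ethanol 1 to 4, or 222, 678, 146.1 and 154 CPM against 88.9, 39.3, 146.2 and 59.8 CPM. The groups touched, because ethanol 3 lay level with control 3, and control 2 stood far above the other controls. The means were 300.1 ± 254 CPM (SD, n = 4) in control and 83.6 ± 46.4 CPM (SD, n = 4) in ethanol, and it fell by 1.84 ± 0.59 on the log2 scale (edgeR, adjusted p = 0.0493). Without control 2 its log2 fold change was −1.14 ± 0.55 (edgeR adjusted p = 0.179).

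miR-497a-5p, the neighbour of miR-195a, was the least abundant member. It had 49, 266, 54 and 40 counts in control 1 to 4 and 38, 16, 54 and 20 counts in ethanol 1 to 4, or 12.8, 68.8, 13.5 and 11.1 CPM against 5.58, 3.37, 10.2 and 3.46 CPM. All 4 ethanol libraries lay below all 4 controls in CPM, with control 2 again far above the rest. The lowest count, 16 in ethanol 2, has an exact 95% Poisson interval of 9.15 to 26.0 counts, which covers counting error only. The means were 26.6 ± 28.2 CPM (SD, n = 4) and 5.65 ± 3.19 CPM (SD, n = 4), and it fell by 2.23 ± 0.61 on the log2 scale (edgeR, adjusted p = 0.0325). Without control 2 the log2 fold change was −1.23 ± 0.45 (edgeR adjusted p = 0.100).

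The order of the levels was miR-16, miR-15b, miR-15a, miR-195a and miR-497a, and as the mature sequences are 21 or 22 bases long no correction for length was needed. How efficiently each sequence is ligated and captured was not measured, which limits a comparison of levels between members. The control ranges of miR-16, miR-15b and miR-15a did not overlap. The control ranges of miR-15a and miR-195a did overlap, since miR-195a reached 678 CPM in control 2, although miR-15a was higher than miR-195a within each of the 7 libraries that list it. Among all miRNA rows by mean CPM, miR-15b ranked 14, miR-15a 44, miR-195a 68 and miR-497a 143. Of the family's summed counts, miR-16-5p made up 93.0% in control and 95.2% in ethanol on average. The family as a whole held 30.7% ± 2.99 of the miRNA counts in control and 28.9% ± 2.52 in ethanol (SD, n = 4 each), with ranges of 27.4% to 34.5% and 26.5% to 31.5% that overlapped. Counted over the miRNAs without a doubtful 0, which leaves miR-15a-5p and miR-15b-5p out of the family, the mean share was 35.3% in control and 34.6% in ethanol. Of all counts kept as features it held 6.39% ± 1.69 in control and 2.51% ± 0.671 in ethanol (SD, n = 4 each), and these ranges, 5.0% to 8.68% and 1.71% to 3.13%, were apart.

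The balance between members was next compared as a ratio to miR-16-5p in the same library, which does not depend on how libraries are scaled. Per 1000 miR-16-5p counts, miR-15b-5p had 67.1, 60.1, 66.0 and 48.6 counts in control 1 to 4 and 51.4, 62.7, 0 and 47.4 in ethanol 1 to 4. miR-15a-5p had 9.78, 11.4, 9.26 and 9.24 in control and 0, 7.33, 11.6 and 9.02 in ethanol. Apart from the lone 0 values, both members of the miR-15 branch kept a narrow range beside miR-16, and the groups overlapped for each. miR-195a-5p had 3.28, 7.82, 2.99 and 2.47 in control and 3.23, 3.49, 4.21 and 2.92 in ethanol. miR-497a-5p had 0.189, 0.793, 0.276 and 0.178 in control and 0.203, 0.299, 0.293 and 0.169 in ethanol. In both, control 2 was above the other 7 libraries, which mixed without regard to group.

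None of these 4 ratios passed a two-sided exact permutation test over the 70 assignments of libraries, whose smallest possible p is 0.0286. The difference in mean log2 ratio, ethanol minus control, was −0.11 for miR-195a (exact p = 0.886, adjusted over the 4 ratios 0.886) and −0.31 for miR-497a (exact p = 0.8, adjusted 0.886). Without control 2 these became 0.25 and 0.17. With the 0 values kept and a pseudocount of 0.5 the differences were −3.05 for miR-15a (exact p = 0.229, adjusted 0.457) and −3.73 for miR-15b (exact p = 0.2, adjusted 0.457). Without the library at 0 they were −0.11 (exact p = 0.457, adjusted 0.886) and −0.17 (exact p = 0.4, adjusted 0.886). The size of the first pair of values came from the lone 0 values.

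**Figure D2:**
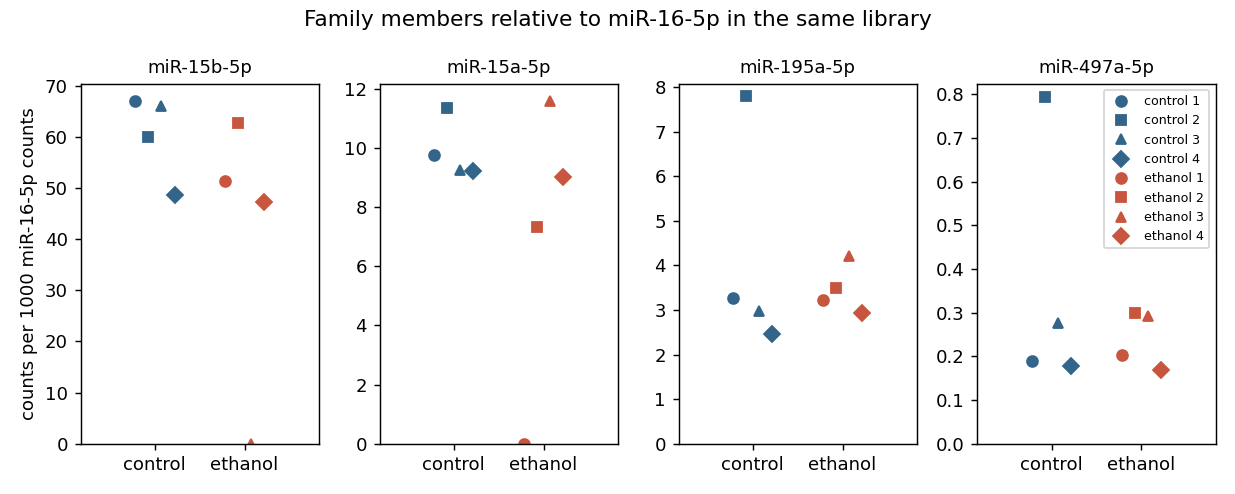
Counts of miR-15b-5p, miR-15a-5p, miR-195a-5p and miR-497a-5p per 1000 miR-16-5p counts in the same library, one point per control (blue) and ethanol (red) library, each panel on its own axis from 0. Control 2 stands at 7.82 for miR-195a and 0.793 for miR-497a above all other libraries, and the lone 0 values of miR-15b and miR-15a lie in ethanol 3 and ethanol 1.

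When the test was repeated on the miRNA rows alone, so that each miRNA was scaled to the other miRNAs, 0 of the 5 members were called by edgeR and 0 were below an unadjusted p of 0.05. In that test 1 of 241 miRNA rows, or 0.415%, was called. miR-16-5p stood at −0.11 ± 0.20 (SE; edgeR adjusted p = 0.955), miR-195a-5p at −0.36 ± 0.37 (edgeR adjusted p = 0.802) and miR-497a-5p at −0.68 ± 0.50 (edgeR adjusted p = 0.704). miR-15a-5p had −0.72 ± 1.34 and miR-15b-5p −0.61 ± 1.55 with their 0 values kept. Without the library at 0 they had −0.30 ± 0.23 (edgeR adjusted p = 0.711) and −0.24 ± 0.21 (edgeR adjusted p = 0.835). The median over the members was −0.61 with the 0 values and −0.30 without them, against −0.10 over all 241 miRNA rows. The falls above were therefore measured relative to all RNA classes, in which mRNA exon features had a median log2 fold change of 0.89, and not relative to other miRNAs.

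**Figure D3:**
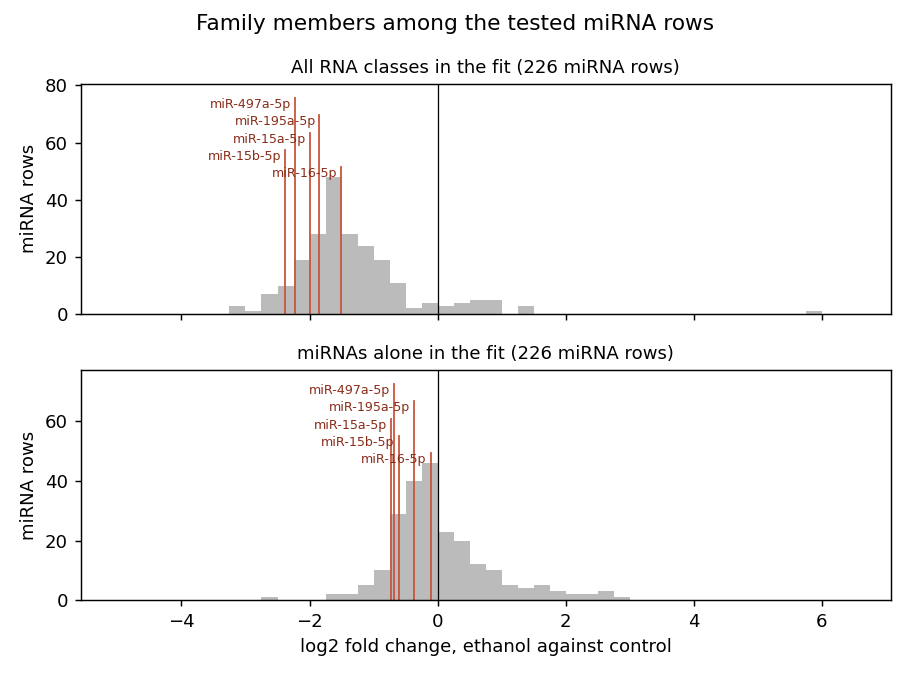
Histograms of the log2 fold change of ethanol against control for the 226 miRNA rows tested in both fits (y axis, number of miRNA rows), with all RNA classes in the fit above and with miRNAs alone below; red lines mark the 5 family members. With all classes the members lie between −2.38 and −1.5, around and below the median of −1.52, and with miRNAs alone between −0.72 and −0.11.

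The calls also depended on single libraries, as did those of features of every kind. In edgeR tests with 1 library left out, the adjusted p of miR-16-5p ran from 0.00876 to 0.143, that of miR-195a-5p from 0.00680 to 0.179 and that of miR-497a-5p from 0.00577 to 0.184. The fold changes of all members stayed negative in each of the 8 such tests. Without ethanol 3 the called members were miR-15b, miR-16, miR-195a and miR-497a, and without ethanol 2 they were miR-16 and miR-195a. Without ethanol 1 miR-497a alone was called, and without ethanol 4 none. Over all features, 3568 were called without ethanol 3, 1370 without ethanol 2, 2424 without ethanol 1 and 1043 without ethanol 4. With only ethanol 3 and 4 kept, miR-16-5p stood at −1.31 ± 0.52 (SE; edgeR adjusted p = 0.121) and 0 members were called. With only ethanol 1 and 2 kept, it stood at −1.90 ± 0.62 (SE; edgeR adjusted p = 0.0299) and 4 members were called, all but miR-15a. Features of any kind called were 816 with only ethanol 3 and 4 kept and 3303 with only ethanol 1 and 2 kept. All controls carry 1 kind of code, so no comparison within a kind of code could be made.

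**Figure D4:**
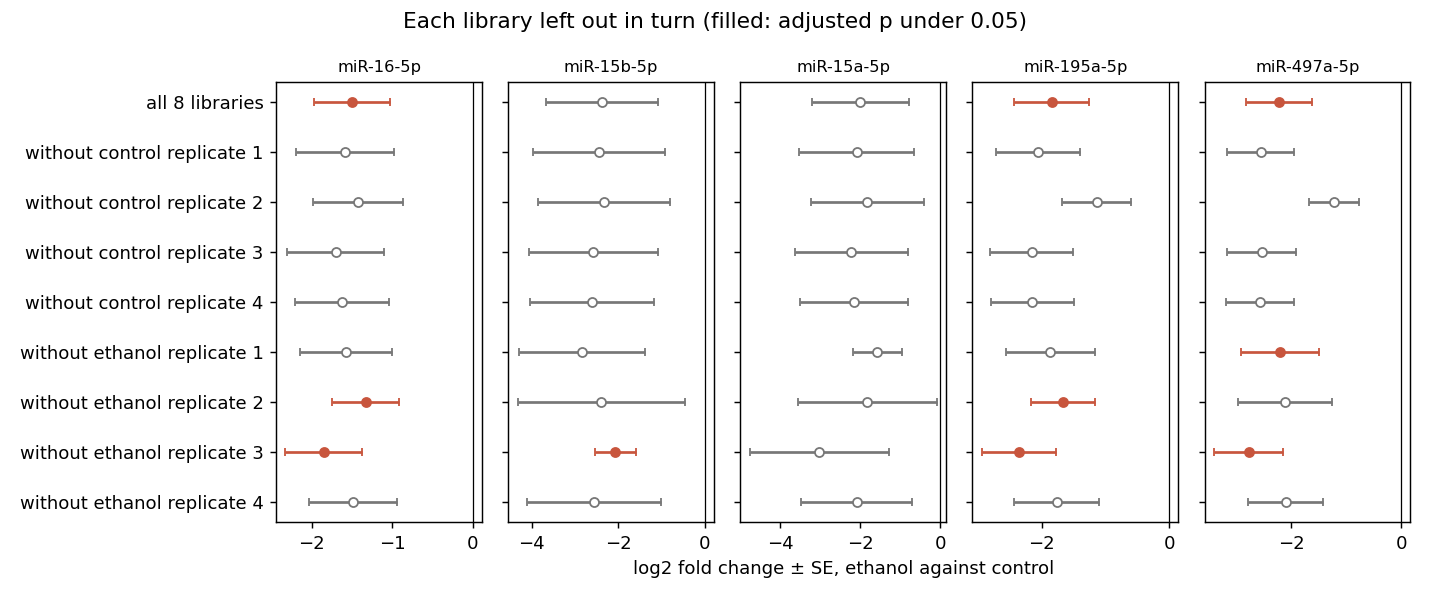
Log2 fold change of ethanol against control with its SE (bars) for each family member, with all 8 libraries and with each library left out in turn; filled red points passed an edgeR adjusted p of 0.05. All points lie below 0, no member is filled when any control is left out, and miR-195a-5p and miR-497a-5p move from −1.84 to −1.14 and from −2.23 to −1.23 without control 2.

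The high values of miR-195a and miR-497a in control 2 came with high values of several miRNAs known from stroma and muscle. The 7 such miRNAs with a row, among them miR-143-3p and miR-145a-5p of smooth muscle, miR-199a-3p of fibroblasts and the muscle miRNAs miR-1a-3p and miR-133a-3p, summed to 8071, 48621, 3389 and 11440 CPM in control 1 to 4. In ethanol 1 to 4 they summed to 4084, 1358, 6016 and 3042 CPM. miR-143-3p alone gave 27481.5 CPM of the sum in control 2. The miRNAs named here were each highest in control 2, but the rest of the list was not. miR-214-3p had 0 counts in control 2, against 7, 9 and 9 in control 1, 3 and 4. miR-126a-3p had 73.9 CPM in control 2 and 87.4 CPM in control 3. Control 2 held the highest sum and ethanol 2 the lowest, as for miR-195a and miR-497a. This order was not particular to them. miR-16-5p was also highest in control 2, at 86736 CPM, and lowest in ethanol 2, at 11259 CPM. The miRNA share of the counts kept as features was likewise highest in control 2, at 28.0%, and lowest in ethanol 2, at 6.47%. Of the list's 9 members 8 were tested, 4 fell and 0 rose, and their median log2 fold change was −2.24. All 4 were miRNAs, a class of which 39.4% were called lower with a median of −1.52, and the mRNAs Col1a1 and Acta2 did not pass. The part of such cells in the values of miR-195a and miR-497a was not tested. Within a library miR-497a-5p ran at 5.78 to 10.1 counts per 100 miR-195a-5p counts in control and 5.78 to 8.56 in ethanol, a ratio chosen after its values were seen.

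**Figure D5:**
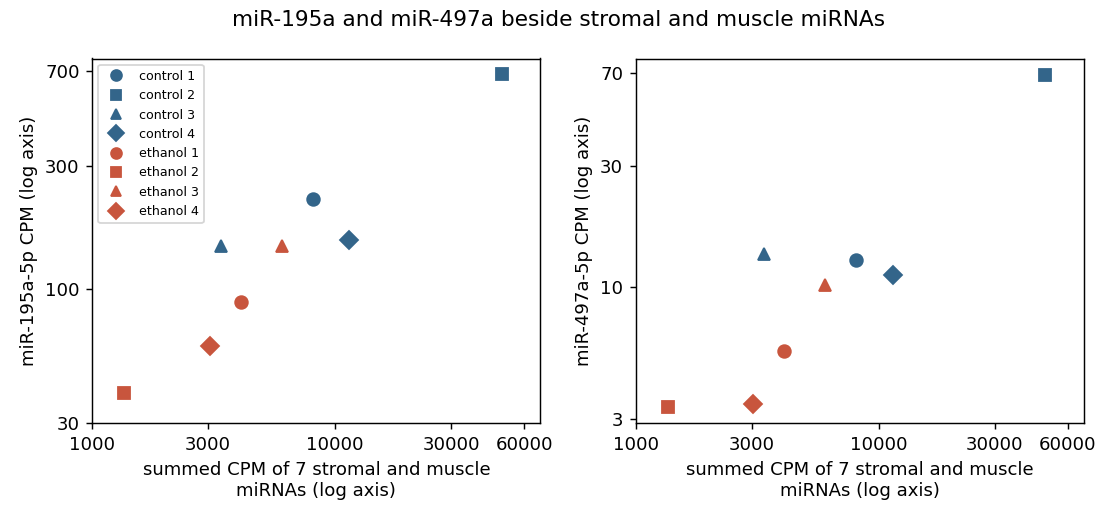
Level of miR-195a-5p (left) and miR-497a-5p (right) in CPM against the summed CPM of 7 stromal and muscle miRNAs, all axes logarithmic, one point per control (blue) and ethanol (red) library. Control 2 lies at the top right with a sum of 48621 CPM and ethanol 2 at the bottom left with 1358 CPM.

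Markers of other cells the sperm samples could hold were read against the shares of their class called in the same test, which were 39.4% lower for miRNA rows (median log2 fold change −1.52) and 23.8% higher for mRNA exon features (median 0.89), with 1.75% of all features lower. Of 8 tested red blood cell markers 6 fell and 0 rose, and the median log2 fold change was −2.18. Of the 6, 4 were miRNAs and the others the globin mRNAs Hba-a1 and Hba-a2. Hba-a1 and Hba-a2 had nearly the same counts in each library, and their reads may be shared. The globin mRNAs Hbb-bs and Hbb-bt did not pass, at −1.55 ± 0.60 and −1.78 ± 0.65 (SE; edgeR adjusted p = 0.0918 and 0.0765). The 5 miRNAs of that list summed to 111 to 1436 CPM in control and 40.8 to 134 CPM in ethanol. miR-15 and miR-16 are also abundant in blood cells. Of 5 tested white blood cell markers 3 fell and 0 rose, and the median was −1.72. The 3 were miR-223-3p, miR-150-5p and miR-155-5p, and the mRNA Cd74 stood at −0.25 ± 0.38 (SE; edgeR adjusted p = 0.663). The defining gene Ptprc had 2 to 7 counts per library, and miR-142a-3p was not analysed here. Of 9 tested epithelial markers 3 rose and 0 fell, with a median of −0.25. The 3 were the mRNAs Epcam, Krt8 and Krt18, each highest in ethanol 2, the library with the least miR-16. None of the list's 6 miRNAs with a row passed, and only miR-205-5p had a log2 fold change above 0, at 0.69. These miRNAs summed to 2098, 2093, 3937 and 1135 CPM in ethanol 1 to 4, so ethanol 2 was not the highest in their sum. By single miRNA, miR-205-5p had 107, 563, 217 and 68.8 CPM in ethanol 1 to 4, and miR-141-3p 175, 217, 0 and 0. Among the ethanol libraries, miR-200a-3p, miR-200b-3p, miR-429-3p and miR-203-3p were each highest in ethanol 3. Of 15 tested germ cell and sperm markers 5 fell and 0 rose, with a median of −0.88. The 5 were among the 8 miRNAs of the list, and none of its 7 mRNAs passed. The log2 fold changes of these 7 mRNAs were nevertheless all negative, from −0.93 for Smcp to −0.43 for Prm2, where mRNA exon features had a median of 0.89. The part of these cells in the family's fall was not tested.

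The 3p arms of the family's hairpins, the strands usually discarded, were close to 0. None of 7 was tested: miR-15b-3p had 0 to 10 counts per library, miR-16-2-3p 1 to 13, and miR-16-1-3p had 2 counts in all, both in ethanol 1. No ratio of arms was computed, because no hairpin had a median above 10 counts in both arms. The deposited table also has hairpin rows, apart from the mature miRNA rows. Of the family's 7 hairpin rows only that of mir-16-1 was tested, with 27, 30, 21 and 21 counts in control 1 to 4 and 20, 5, 20 and 8 in ethanol 1 to 4. In CPM all 4 ethanol libraries lay below all controls, and it fell by 1.48 ± 0.42 on the log2 scale (edgeR, adjusted p = 0.0369), where 23.7% of the 38 tested hairpin rows were called lower. A second tested row of that name, of the miRNA type, had 12, 16, 10 and 9 counts in control 1 to 4 and 17, 5, 15 and 4 in ethanol 1 to 4. Its groups overlapped, and its log2 fold change was −0.77 ± 0.45 (SE; edgeR adjusted p = 0.239). The call of the hairpin row was lost without any 1 control and without ethanol 4, at adjusted p up to 0.105.

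The host genes did not pass the test. Intron counts of Dleu2, which carries Mir15a and Mir16-1, were 62, 28, 50 and 50 in control 1 to 4 and 76, 32, 94 and 63 in ethanol 1 to 4. On the scaled level the groups overlapped, at 12.5 ± 3.81 CPM and 11.6 ± 4.54 CPM (SD, n = 4 each), with a log2 fold change of −0.10 ± 0.38 (SE; edgeR adjusted p = 0.882). Smc4, host of Mir15b and Mir16-2, stood at 0.21 ± 0.35 in its exons (edgeR adjusted p = 0.707) and 0.29 ± 0.40 in its introns (edgeR adjusted p = 0.629). Smc4 had 12 to 31 exon counts per library, which limits the precision of its values. Small RNA libraries hold fragments of such transcripts, not their full length.

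The miRNAs miR-103-3p and miR-107-3p hold the bases AGCAGCA shifted by 1 position and are often grouped with the family. Their sequences are shown with the seed in capitals to make the shift visible.
miR-103-3p: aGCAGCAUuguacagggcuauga
miR-107-3p: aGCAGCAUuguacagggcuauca

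miR-103-3p had 5573, 9746, 5522 and 6278 counts in control 1 to 4 and 4413, 1643, 4019 and 2932 in ethanol 1 to 4. Every ethanol library lay below every control in CPM, and miR-103-3p fell by 1.65 ± 0.45 on the log2 scale (edgeR, adjusted p = 0.0324). miR-107-3p, which differs from it at 1 position (G22C), fell by 1.54 ± 0.41 (edgeR, adjusted p = 0.0316), and reads of the pair may be shared. Both calls were lost without any 1 control or without ethanol 4, at adjusted p up to 0.103 and 0.0951. miR-503-5p, which is cut from the same transcript as miR-322, had 0 to 3 counts per library. None of the neighbours of miR-322 reached the count needed for a test, the highest being miR-450a-5p with 0 to 12 counts.

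By the Pearson correlation of log2 CPM over the 8 libraries, the miRNA rows most like miR-16-5p were miR-743b-3p (r = 0.989), miR-465c-5p (0.988), miR-20a-5p (0.988), miR-128-3p (0.988) and miR-466b-3p (0.988). The median over the 221 candidate rows was 0.83. All rows share the libraries and the difference in the miRNA share between groups, whose part in this value was not tested. Of the other members miR-195a-5p reached 0.92 and miR-497a-5p 0.86, and with their 0 values kept miR-15a-5p had 0.48 and miR-15b-5p 0.28. Over the 7 libraries that list them, the values were 0.991 and 0.983. Because the nearest rows were chosen for likeness to miR-16-5p over the same libraries, their falls follow largely from the choice. Of all tested miRNA rows 39.4% were called lower. The 5 nearest rows had log2 fold changes of −2.05, −1.79, −1.56, −1.34 and −1.72 in that order, and miR-128-3p was the one that did not pass (edgeR adjusted p = 0.0728). The other 4 calls were lost without any 1 control, those of miR-465c-5p, miR-20a-5p and miR-466b-3p also without ethanol 4, and the last 2 of these also without ethanol 1.

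Fragments of known target mRNAs were read from a list of 22 genes of the cell cycle, survival and growth factor signalling. Of 14 tested, 1 rose and 0 fell, and the list's median log2 fold change was 0.34 against 0.89 over all tested mRNA exon features, of which 23.8% were called higher. The one that rose was Ccnd1, the G1 cyclin D1, with 31, 64, 41 and 67 counts in control 1 to 4 and 179, 333, 136 and 390 in ethanol 1 to 4. All 4 ethanol libraries lay above all controls in CPM, and the log2 fold change was 1.82 ± 0.46 (SE; edgeR adjusted p = 0.0291). It was lost without any 1 control and without ethanol 4, at adjusted p up to 0.113. Mcl1, a survival factor of the Bcl2 family, stood at 0.17 ± 0.35 (SE; edgeR adjusted p = 0.766). Bcl2 itself had 1 to 20 counts per library and was not tested.

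Genes that make or use miRNAs gave 1 rise and 0 falls among 15 tested of 21 listed, with a median of 0.37, where mRNA exon features had 23.8% called higher and a median of 0.89. Xpo5, which exports hairpins from the nucleus, had 9, 24, 21 and 18 counts in control 1 to 4 and 101, 268, 39 and 57 in ethanol 1 to 4, with ethanol 2 far above the rest. Its log2 fold change was 2.22 ± 0.60 (SE; edgeR adjusted p = 0.0322), and the call was lost without any 1 control, at adjusted p up to 0.112. Ethanol 2 was also the library with the highest epithelial mRNAs, and Epcam had 181, 523, 106 and 149 counts in ethanol 1 to 4 against 19 to 45 in control. Their part in the values of Xpo5 and Ccnd1 was not tested. Drosha stood at 0.01 ± 0.32, Dicer1 at 0.37 ± 0.36 and Ago2, the Argonaute with the most counts, at −0.02 ± 0.52, and none of these passed (edgeR adjusted p = 0.979, 0.483 and 0.985).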

How the data were processed

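The deposited table gives counts, whole numbers for each feature in each of 8 libraries, and per the file headers it names a feature and its type and no normalization. The Trizol extraction and the Qiaseq kit are known per the labels. The aligner, the counting rule, the genome build and whether the values count reads or molecules are not given in the sources used here.

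Rows of the same name and type were summed to 45405 features in 14 classes. Of piRNA cluster rows that share a name before a final number, only the one with the most counts was kept. The test was edgeR's quasi-likelihood test (version 4.0.16, R 4.3.3) with TMM scaling and a robust fit on group alone. Features had to pass filterByExpr at its minimum count of 10, and p-values were adjusted by Benjamini-Hochberg over the 13513 that did, with a threshold of 0.05. The SE is the absolute log2 fold change divided by the square root of F. Alternatives used DESeq2 1.42.0, limma 3.58.1, other scalings and filters, fewer libraries and miRNAs alone. Sequences and hairpin positions are those of RefSeq for GRCm38.p6, and host genes those of GENCODE for GRCm38, matched by name; they were not compared with the authors' build. All 6 names of the family matched. A 0 is called doubtful where the median over the other libraries is above 100 counts.

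The members and lists were chosen with earlier results of these data known. Named in the text are all members, their arms and hairpins, related seeds, neighbours of miR-322, host genes, the 5 nearest miRNA rows, and, in the lists of targets and of processing genes, up to 4 called members, else the 2 of highest mean; Bcl2, Mcl1, Drosha, Dicer1, Ago2 and the marker genes were added after their values were seen. No pair of libraries of a group agreed within sampling noise, so each was treated as a replicate. This does not show that they are from different animals. Overlapping and antisense genes are uncertain, since no strand rule is given.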

Additional observations from a re-analysis of the deposited data

Results flagged for a closer look

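In 4 of the 20 sets of 4 libraries examined, the highest library lay farther from the others than Dixon's 95% limit for 4 samples; chance flags about 1 in 20 such sets. All 4 were control 2. They were the level of miR-195a-5p, 678 CPM against 146.1 to 222 in the other controls, and that of miR-497a-5p, 68.8 CPM against 11.1 to 13.5. The others were the ratios to 1000 miR-16-5p counts, 7.82 for miR-195a-5p and 0.793 for miR-497a-5p. The 4 sets are not independent of each other, since they describe 2 neighbouring miRNAs in 1 library. The 7 stromal and muscle miRNAs of that library summed to 48621 CPM, and their part in these values was not tested.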

How the results depend on the processing

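Over the alternatives run, the log2 fold change of every member was negative, in 19 of 19 for miR-16-5p (called in 8), 19 of 19 for miR-195a-5p (called in 6), 18 of 18 for miR-497a-5p (called in 6), 20 of 20 for miR-15b-5p (called in 2) and 20 of 20 for miR-15a-5p (called in 0). Of the 5 members 3 were called with all libraries and TMM scaling. That count was 1 with library totals and with a minimum count of 50, where miR-497a-5p was not tested. It was 0 with limma-voom (5 at an unadjusted p under 0.05), with miRNAs alone in edgeR, without ethanol 1 and 2 (4 without ethanol 3 and 4), and without control 2 and ethanol 2 together, the last, like miRNAs alone without a library at 0, chosen after seeing the data (3 at an unadjusted p under 0.05). Leaving out 1 library gave 0 to 4.

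The number of features called was 1837, of which 1601 higher and 236 lower. It was 1201 with DESeq2's size factors, 3140 with DESeq2's own test, 8 with limma-voom, 3432 with no count filter, 245 with a minimum count of 50, 816 without ethanol 1 and 2, 3303 without ethanol 3 and 4, 1 with miRNAs alone, and 3 to 3568 with 1 library left out. Library totals moved the median of all features to 0.25, and there miR-16-5p stood at −1.30 (edgeR adjusted p = 0.0461).

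Labels give both groups the numbers 1 to 4 and do not say that the numbers mark pairs. The deviations of same-numbered libraries correlated at 0.341, 0.209, −0.127 and −0.0202. Libraries of different numbers were not correlated for comparison, so these values cannot decide whether same-numbered libraries are related. With the replicate block 3291 features and 3 members were called, with miR-16-5p at −1.58 (edgeR adjusted p = 0.0367). With 1 library left out, the log2 ratio difference to miR-16-5p ran from −0.30 to 0.25 for miR-195a-5p and from −0.54 to 0.17 for miR-497a-5p, above 0 only without control 2. Depth limits miR-497a-5p, the 3p arms and the hairpin rows, where some libraries hold under 20 counts. The causes of these changes were not tested.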
